A study of Mus musculus with 24 samples.

Results

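Livers of mice given a sugar drink were set directly against livers of mice given a high-fat diet, to see which genes differ between overload with sugar and overload with fat. The comparison used 12 of the 24 samples of the study: the 6 high-sugar samples (normal diet with a drink of 23% w/v sugar) and the 6 high-fat samples (high-fat diet with plain water). Samples were assigned to these groups by their labels alone, while the comparison itself was picked with earlier results of these data known. All were liver tissue of male C57BL/6J mice, an inbred strain that carried no engineered allele by its labels, 16 weeks old and 10 weeks into feeding. The 6 control samples (normal diet, plain water) and the 6 high-fat high-sugar samples (high-fat diet with the sugar drink) share the strain, sex, age and feeding time, and are given for reference. The kind of sugar, the make-up of the diets and the hour at which tissue was taken are not given in the sources used here. Whether replicates come from different animals is not stated in the labels, and the p-values therefore reflect only how far these samples spread.

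The liver turns surplus sugar into fatty acids through enzymes under the transcription factors ChREBP, which senses sugar metabolites, and SREBP-1c, which responds to insulin. Dietary fat instead brings ready-made fatty acids, which are burned, packed into lipid droplets or exported, and which activate PPAR alpha, a receptor that switches on genes of fatty acid oxidation. Cholesterol synthesis is run by SREBP-2, which is active when membrane sterol is low, and the receptors CAR and PXR drive genes that clear drugs, steroids and bile acids. A circadian clock sets the daily rhythm of many liver genes and is itself moved by feeding.

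Values are array intensities that were already corrected for background and normalised between arrays. A gene's level below is this intensity on a linear scale, and the value of a probe with no signal scatters around 0. A level above 6.50 to 6.52, depending on the array, exceeded the noise limit. Differences are high-sugar minus high-fat on the scale of log2(intensity + 32), given with their standard error (SE, 6 samples in each group). Folds are likewise computed after adding 32, which understates changes of dim genes. "Higher" and "lower" without further words are for high-sugar against high-fat and passed limma's two-sided test at a Benjamini-Hochberg adjusted p of 0.05 over 11115 genes. Intensities of different probes are not compared with each other.

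Samples of each diet resembled each other closely. Correlations of log2 levels were taken across the 20216 probes kept. They were 0.991 to 0.995 among high-sugar samples, 0.989 to 0.995 among high-fat samples and 0.975 to 0.982 between samples of the 2 groups. No 2 arrays held identical values. All 10 hepatocyte markers were measured, and their summed intensity ran from 93076 to 98319 in high-sugar, from 85265 to 91661 in high-fat and from 87322 to 97515 in control samples, so the tissue label was met in both groups. Serpina1a, Ttr and Cyp2e1 among these markers were higher, Cps1 was lower and 6 did not pass. The albumin (Alb) probe was dim for so abundant a transcript, with medians of 138 and 128.

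Of the 11115 genes, 3905 (35.1%) differed between the diets, 1952 higher (17.6%) and 1953 lower (17.6%). At least 1.5-fold were 858 of them (7.72%), 553 higher (4.98%) and 305 lower (2.74%). At least 2-fold were 132 higher and 73 lower, and at least 4-fold 10 and 10. The median difference over all genes was −0.02. In 1977 genes (17.8%) the 6 high-sugar values and the 6 high-fat values did not overlap, with high-sugar above in 1166 (10.5%) and below in 811 (7.30%), and 719 of the 858 genes were among these. Other probes of a gene did not always move with its brightest. Of 1011 other probes of the 3905 genes that also passed, 169 (16.7%) went the opposite way, against 13 of 275 (4.73%) for the 858 genes past 1.5-fold. Among other probes with a mean intensity of at least 100 these shares were 8.69% (39 of 449) and 2.33% (3 of 129).

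**Figure D1:**
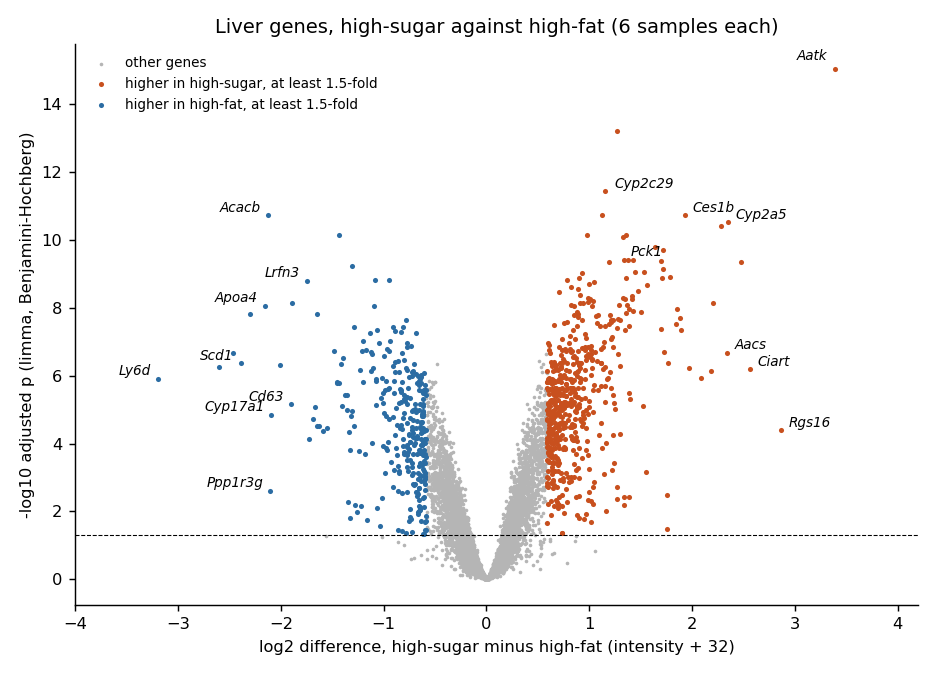
Each point is 1 of the 11115 genes, placed by its log2 difference (high-sugar minus high-fat, x axis) and the −log10 of its adjusted p (y axis), with the threshold of 0.05 as a dashed line. Orange and blue points are the 553 genes higher and the 305 lower by at least 1.5-fold, and Aatk stands highest at the right and Ly6d farthest at the left.

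The largest difference in favour of sugar was that of Aatk, which encodes a kinase first found in dying blood cells. It lay between 753 and 1076 (median 868) in high-sugar samples and between 32.3 and 65.7 (median 61.3) in high-fat samples, a 10.5-fold difference (3.39 ± 0.14, adjusted p = 9.44e-16). Every high-sugar sample was far above every high-fat sample, while the control median was 159 and that of the high-fat high-sugar group 448. Rgs16, which shortens G protein signals, ran from 2489 to 10271 (median 6916) with sugar and from 339 to 2791 (median 691) with fat (7.28-fold, 2.86 ± 0.48, adjusted p = 4.06e-05). Its groups overlapped, since 1 high-sugar sample lay at 2489 and 1 high-fat sample at 2791.

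Aacs, which activates the ketone body acetoacetate for lipid synthesis, lay between 568 and 1222 (median 835) with sugar and between 71.6 and 225 (median 140) with fat (5.06-fold, adjusted p = 2.1e-07). Thrsp, a sugar-induced helper of fatty acid synthesis, lay between 1785 and 3910 (median 2815) and between 497 and 939 (median 574), a 4.24-fold difference (adjusted p = 1.15e-06). Neither gene's groups overlapped. Their control medians were 532 and 3789, so that of Thrsp lay above both medians, nearer to that of sugar. In the high-fat high-sugar group Thrsp ran from 363 to 761. The other genes among the 15 largest of this direction were Ciart, Bhlhe40 and Usp2 of the clock, the P450 genes Cyp2a5, Cyp2c50 and Cyp2b10, Msmo1 of cholesterol synthesis, the carboxylesterase Ces1b, the urinary protein gene Mup5, the apolipoprotein gene Saa4 and Ildr2, with folds from 3.58 (Ildr2) to 5.91 (Ciart). Mup5 belongs to a family of near-identical genes whose probes can take up each other's signal, and it was 1.43 on the log2 scale with the mean of its probes, against 2.20 with its brightest.

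**Figure D2:**
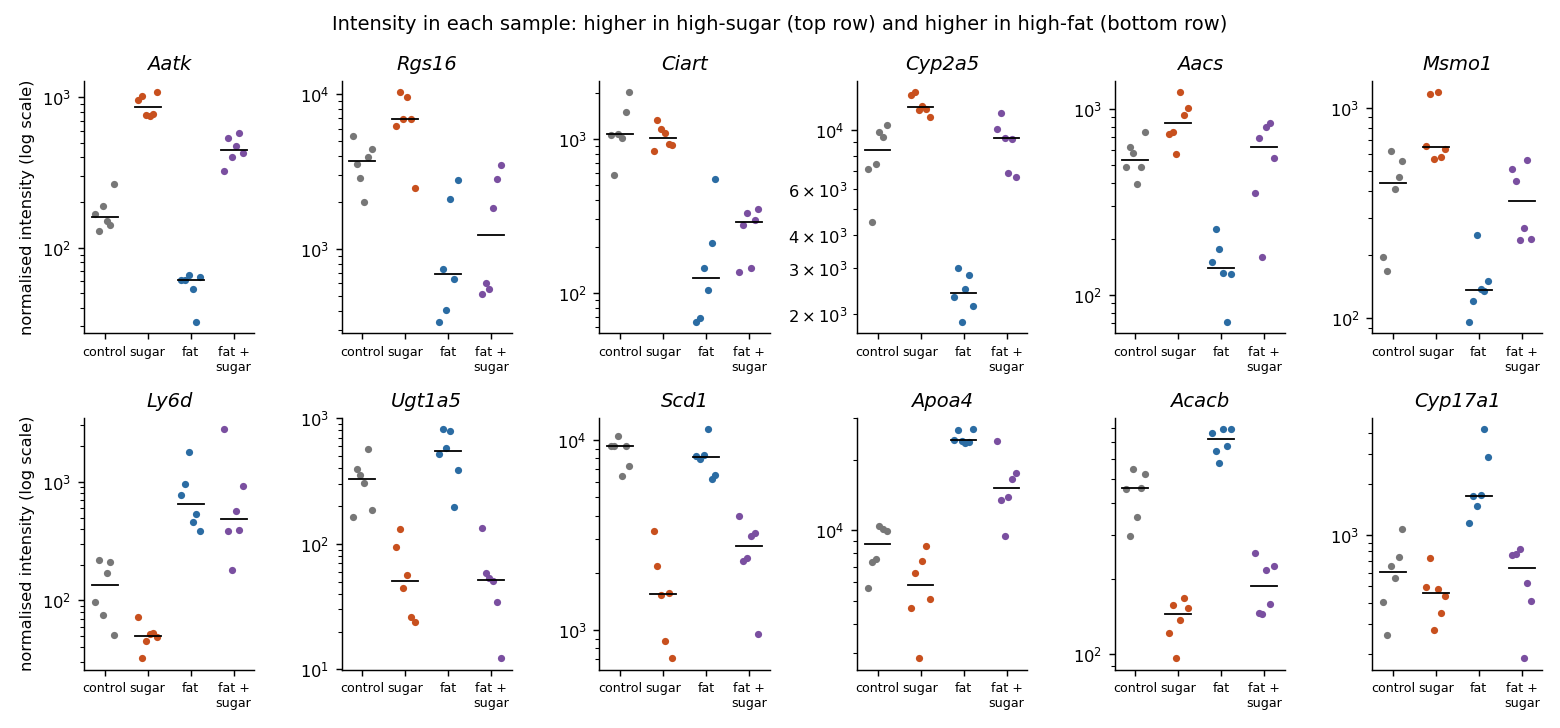
Normalised intensity (log scale, y axis) of 12 genes in each of the 24 samples, with 6 points per group and a bar at the group's median. In the top row the high-sugar points lie above the high-fat points, apart from an overlap in Rgs16, and in the bottom row they lie below them.

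Fat gave the higher level of Ly6d, which encodes a membrane-anchored protein best known from lymphocytes and epithelia. Its intensity lay between 387 and 1790 (median 657) with fat and between 32.4 and 72.2 (median 50.1) with sugar, 9.13-fold lower in the latter (−3.19 ± 0.41, adjusted p = 1.22e-06), and the control median was 134. The groups did not overlap, but the high-fat samples themselves spread widely. Cyp17a1, a steroid hydroxylase, ran from 275 to 737 (median 456) with sugar and from 1176 to 4193 (median 1701) with fat (4.26-fold lower, adjusted p = 1.39e-05). Cd63, a tetraspanin of lysosomes and secretory vesicles, ran from 203 to 275 (median 245) and from 431 to 1645 (median 1096), a 3.73-fold difference (adjusted p = 6.87e-06). Both genes were separate between the groups, and both had high-fat samples spread over a wide range.

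A1bg, a plasma glycoprotein gene that is biased to females in mouse liver, lay between 51.8 and 398 (median 112) with fat, and with sugar exceeded the noise limit in 1 of 6 samples, at 7.06 (adjusted p = 1.49e-08). The size of its difference depends on the offset, −2.30 with 32, −3.11 with 16 and −1.60 with 64, and was −1.54 with the mean of its probes. Kiss1, which encodes the precursor of the peptide kisspeptin, lay between 92.2 and 307 (median 209) with fat and between 24 and 56.1 (median 27.7) with sugar (3.22-fold lower). Lamb3, a laminin chain, was 4.02-fold lower. Lrfn3 was 3.35-fold lower on its brightest probe, while its other, dim probe gave −0.26 in the same direction. For 2 further genes the brightest probe stood alone: Spon2 (3.71-fold lower), whose other probe did not pass, and Tubb2b (3.32-fold lower), whose 4 other probes did not pass and which was −0.37 with the mean of its probes. The remaining genes among the 15 largest were Scd1 and Acacb of fatty acid synthesis, Apoa4, Ppp1r3g, Ugt1a5 and Ugt1a2, described with their groups.

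Genes of fatty acid synthesis did not move as 1 block. Of 14 measured genes of 16 listed, 4 were higher, 6 lower and 4 not past the test (median −0.11). Against 17.6% of all genes in each direction, both shares were above the background. Srebf1, the gene of SREBP-1c, lay between 108 and 132 (median 125) with sugar and between 10.5 and 39.9 (median 27.6) with fat (2.66-fold, 1.41 ± 0.13, adjusted p = 5.53e-09). Together with Thrsp, it was higher in every high-sugar sample than in any high-fat sample. Acly, which makes cytosolic acetyl-CoA, had medians of 1552 and 1007 (1.49-fold, adjusted p = 0.000945), with overlap. Mlxipl, the gene of ChREBP itself, gave 0.03 ± 0.12, with medians of 1371 and 1331. The Fasn probe was above the noise limit in 2 high-sugar and 0 high-fat samples, so the level of fatty acid synthase could not be read from it.

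Several other enzymes of the same list lay on the other side. Scd1, which puts the first double bond into saturated fatty acids, ran from 710 to 3337 (median 1549) with sugar and from 6252 to 11403 (median 8128) with fat (5.24-fold lower, −2.39 ± 0.29, adjusted p = 4.33e-07). Acacb, the acetyl-CoA carboxylase at mitochondria whose product blocks fatty acid entry, ran from 96.3 to 168 (median 145) and from 581 to 790 (median 721), 4.35-fold lower (−2.12 ± 0.14, adjusted p = 1.88e-11). Fads2, a desaturase of polyunsaturated fatty acids, ran from 1090 to 1612 and from 2046 to 3389 (1.95-fold lower, adjusted p = 1.61e-07). These 3 genes did not overlap between groups, and the control medians of 9280 for Scd1, 458 for Acacb and 2059 for Fads2 lay nearer to fat than to sugar for Scd1 and Acacb, and between both groups for Fads2. Elovl6, an elongase of saturated fatty acids, was 2.16-fold lower, with overlap (adjusted p = 9.81e-05).

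In triglyceride synthesis 3 of 9 measured genes were higher and 5 lower (median −0.35), against 17.6% of all genes in each direction. Dgat2, the acyltransferase tied to newly made fatty acids, lay between 7182 and 7726 (median 7428) with sugar and between 3533 and 5456 (median 4154) with fat (1.77-fold, 0.82 ± 0.09, adjusted p = 2.07e-07). Dgat1, which preferentially re-esterifies fatty acids from outside the cell, lay between 93.2 and 138 and between 148 and 192 (1.33-fold lower, adjusted p = 0.00125). Thus the 2 enzymes of the same last step differed in opposite directions, each without overlap. Lpin1, a phosphatidate phosphatase, was 2.53-fold higher (1.34 ± 0.35, adjusted p = 0.00364), though with overlap, and Gpat4, an acyltransferase of the first step, 1.39-fold lower. Control values of Lpin1 ran from 1144 to 3762, and those of the high-fat high-sugar group from 140 to 499. The count of 5 lower genes fell to between 2 and 3 without high-fat replicates 1, 2 or 4 or high-sugar replicates 2, 3 or 5.

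Of sugar entry and glycolysis, 10 of 18 listed genes were measured, 4 higher and 2 lower (median 0.17). Against 17.6% of all genes in each direction, the lower share was near the background. Tkfc, which phosphorylates the glyceraldehyde released from fructose, ran from 551 to 867 (median 754) with sugar and from 216 to 382 (median 305) with fat (2.30-fold, 1.20 ± 0.15, adjusted p = 7.71e-07). Pklr, the liver pyruvate kinase and a ChREBP target, ran from 65.6 to 117 and from 34 to 55.6 (1.53-fold, adjusted p = 0.000146). Both were separate between the groups, yet the control median of Tkfc, 695, lay within the high-sugar range. Khk, the fructokinase before Tkfc, gave −0.06 ± 0.16, with medians of 7258 and 7282. Slc2a2, the hepatic glucose transporter, was 1.37-fold higher, with overlap (adjusted p = 0.0421). Pgk1 was 1.30-fold higher on its brightest probe and did not pass with the mean of its probes (0.12, adjusted p = 0.167). Taldo1 of the pentose phosphate route was 1.21-fold lower, and the count of 2 lower genes was 1 without any of high-fat replicates 2, 3, 4 and 6 or high-sugar replicates 3, 4, 5 and 6.

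**Figure D3:**
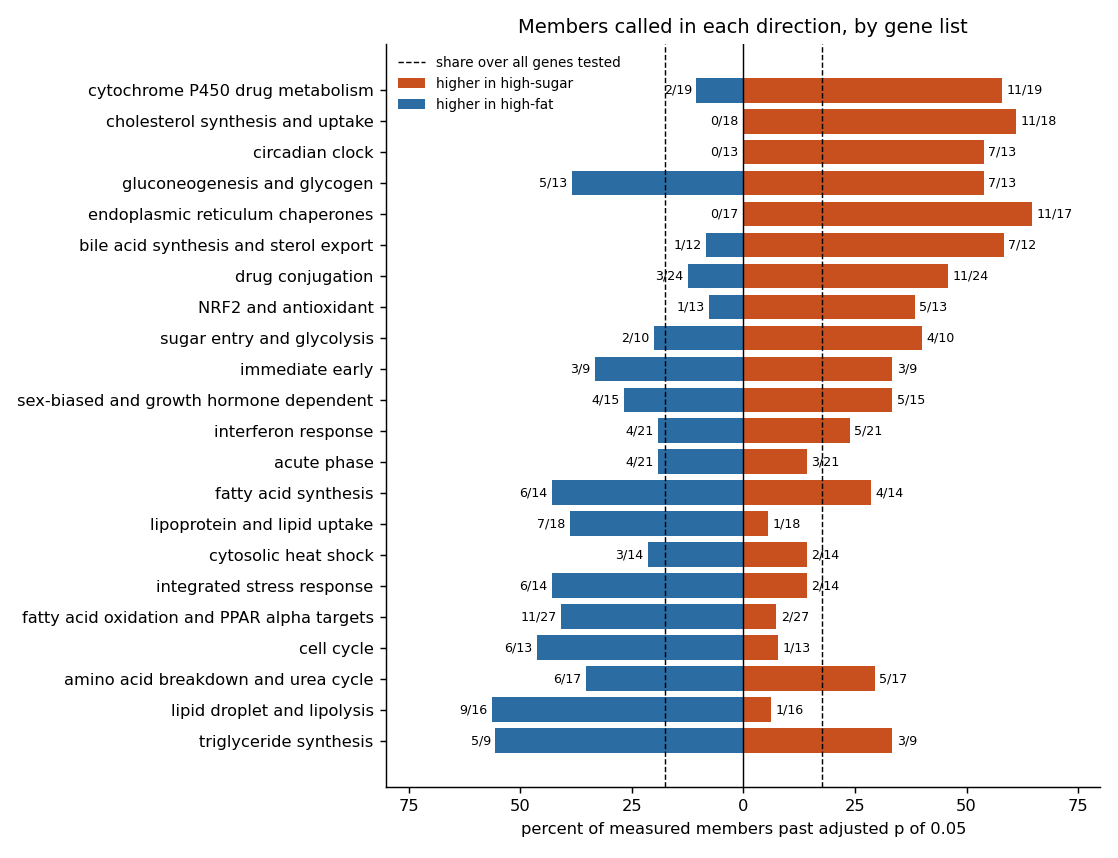
Share of the measured members of 22 pathway lists that were higher in high-sugar (orange, to the right) or in high-fat (blue, to the left), with counts beside the bars. Dashed lines mark 17.6%, the share over all genes tested in each direction, and lists are ordered by median difference from cytochrome P450 genes (0.78) to triglyceride synthesis (−0.35).

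Lipid droplet and lipolysis genes were mostly higher with fat: 9 of 16 measured genes were lower in high-sugar, 1 was higher and 6 did not pass (median −0.34), and 7 lay below without overlap. The shares over all genes were 17.6% in each direction and 7.30% below without overlap. Plin2, the main coat protein of hepatocyte droplets, ran from 774 to 1257 (median 919) with sugar and from 1304 to 2214 (median 1622) with fat (1.78-fold lower, −0.83 ± 0.12, adjusted p = 5.81e-06). Plin5, which joins droplets to mitochondria, was 1.84-fold lower and Cidec, which fuses droplets, 2.26-fold lower, the latter with overlap. Of the lipases, Pnpla2 and Mgll were lower. Pnpla2, which takes the first fatty acid off triglyceride, ran from 1814 to 3059 and from 3978 to 4751 (1.65-fold lower, adjusted p = 1.07e-05). Mgll, which takes off the last, was 2.17-fold lower (adjusted p = 1.99e-07). Lipe, the hormone-sensitive lipase between them, gave −0.05 ± 0.08 and did not pass. The lipase inhibitors Hilpda (1.85-fold) and G0s2 (1.67-fold) were lower too.

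Plin4 was the exception in that list. It lay between 378 and 547 (median 435) with sugar and between 61.6 and 322 (median 192) with fat (2.53-fold, 1.34 ± 0.37, adjusted p = 0.00646), without overlap, and its median in the high-fat high-sugar group was 847. Plin5, Cidec, G0s2, Lipe and Plin4, like Elovl6, Acly, Mlxipl, Fasn, Khk and Slc2a2 above, lie outside the rule for named genes and were picked from the lists after their values were seen.

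Among genes that burn fatty acids or answer to PPAR alpha, 27 of 33 listed were measured: 2 were higher, 11 lower and 14 did not pass (median −0.19). The share over all genes was 17.6% in each direction. Crat, carnitine acetyltransferase, ran from 333 to 574 (median 426) with sugar and from 686 to 1387 (median 954) with fat (2.15-fold lower, −1.11 ± 0.14, adjusted p = 5.98e-07). Cpt1a, the gate of mitochondrial fatty acid entry, lay between 14 and 43.7 (median 34.9) with fat and exceeded the noise limit in 1 of 6 high-sugar samples (adjusted p = 1.55e-06), so that the size of its difference rests on the offset. Both were separate between groups, as was Acot8, a peroxisomal thioesterase (−0.58 ± 0.08). Acot2, a mitochondrial thioesterase, was 2.50-fold lower on its brightest probe, while its 2 other probes, both dim, gave 0.06 and −0.05 and did not pass. The mean of all its probes gave −0.44.

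Fgf21, a hormone made by the liver under PPAR alpha and ChREBP, was also higher with fat. It ran from 341 to 764 (median 427) with sugar and from 929 to 1656 (median 1121) with fat (2.44-fold lower, −1.29 ± 0.21, adjusted p = 3.1e-05), without overlap, and from a control median of 245. Hadhb, a subunit of the mitochondrial trifunctional protein, went the other way (1.74-fold higher, without overlap), while Hadha, its partner, gave −0.28 ± 0.13 and did not pass. Ppara itself gave 0.04 ± 0.10. The last 4 genes were picked after their values were seen. Leaving out single samples gave 7 to 12 lower genes in this list, and the count moved by over 1.5 times without high-fat replicates 1 or 6 or high-sugar replicates 1 or 3.

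Among 18 measured genes of lipoproteins and lipid uptake, 7 were lower and 1 was higher (median −0.12), against 17.6% of all genes in each direction. Apoa4, an apolipoprotein of triglyceride-rich particles, ran from 2853 to 8607 (median 5859) with sugar and from 23557 to 26972 (median 24142) with fat (4.46-fold lower, −2.16 ± 0.20, adjusted p = 8.78e-09), and both of its other probes passed in the same direction. Pltp, the phospholipid transfer protein, ran from 51.8 to 84 (median 64.9) and from 159 to 369 (median 241), 2.70-fold lower (adjusted p = 1.67e-06). Apoc2 and Apoa5, which help lipoprotein lipase, were 1.99-fold and 1.78-fold lower. All 4 genes were separate between the groups, whereas Apoa1 (0.03 ± 0.07), Apoa2 (−0.08 ± 0.06) and Apob (−0.15 ± 0.10) did not pass. Angptl8, a feeding-induced inhibitor of lipoprotein lipase chosen here after its value was seen, was the 1 higher gene (2.05-fold, with overlap), and the count was 2 without high-fat replicate 4.

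**Figure D4:**
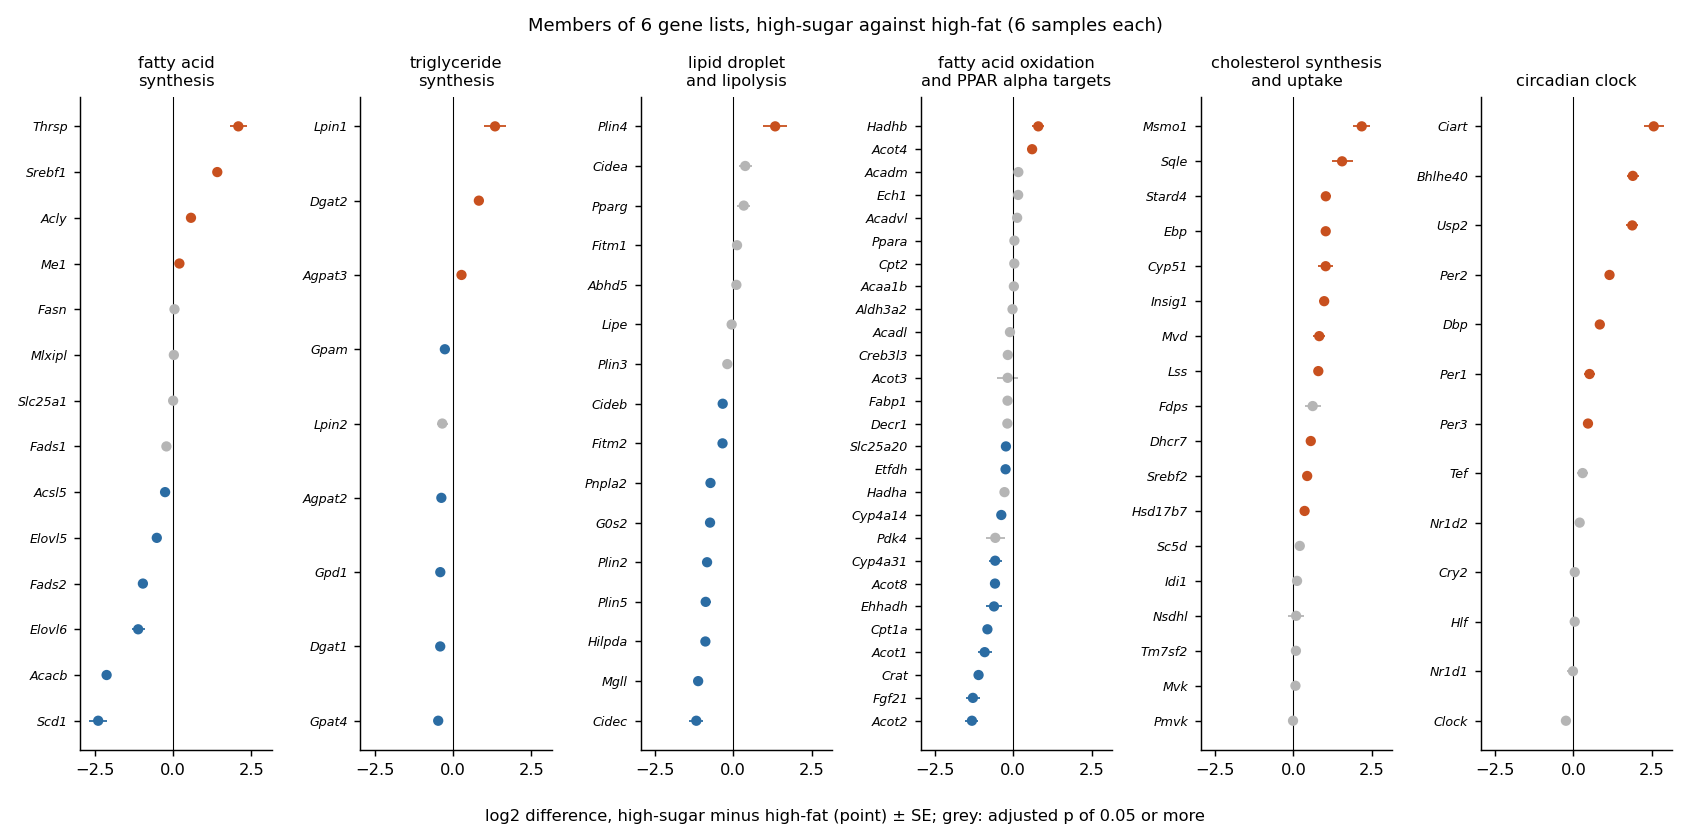
Log2 difference (high-sugar minus high-fat, x axis) with its SE for each measured member of 6 lists, 6 samples a group. Points right of 0 are higher in high-sugar (orange) and points left of 0 are higher in high-fat (blue), while grey points did not pass, so fatty acid synthesis splits from Thrsp at the top to Scd1 at the bottom and cholesterol synthesis has no blue point.

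Cholesterol genes that differed were all higher with sugar. Of 18 measured genes of 24 listed, 11 were higher, 0 lower and 7 did not pass (median 0.59), and 9 lay above without overlap. Over all genes, 17.6% went in each direction and 10.5% lay above without overlap. Msmo1, which removes methyl groups from sterols, ran from 570 to 1178 (median 647) with sugar and from 96.4 to 247 (median 136) with fat (4.54-fold, 2.18 ± 0.27, adjusted p = 7.08e-07). Ebp, a sterol isomerase, ran from 1093 to 1415 (median 1202) and from 553 to 605 (median 579), 2.05-fold higher (1.03 ± 0.10, adjusted p = 6.35e-09). Insig1, the sterol-regulated anchor of SREBP proteins, was 1.98-fold higher and Stard4, a cholesterol carrier protein, 2.05-fold. None of these 4 overlapped. The control medians were 440, 691, 254 and 284, so those of Msmo1, Insig1 and Stard4 lay nearer to sugar and that of Ebp nearer to fat.

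Further members, picked after their values were seen, were Sqle, the squalene epoxidase (2.94-fold, with overlap), Cyp51 (2.04-fold), Lss, which closes the sterol ring (1.74-fold), and Srebf2, the gene of SREBP-2, with 92.8 to 110 against 48.8 to 77.6 (1.36-fold, adjusted p = 0.00465). Of the enzymes that turn mevalonate into its isoprenoid product, Mvd was higher without overlap (0.83 ± 0.19, adjusted p = 0.000994), whereas Mvk (0.07 ± 0.07) and Pmvk (−0.01 ± 0.13) did not pass. The later enzymes Sc5d, Tm7sf2 and Nsdhl did not pass either.

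In bile acid synthesis and sterol export 7 of 12 measured genes were higher and 1 lower (median 0.39). The share over all genes was 17.6% in each direction. Abcg5 and Abcg8, both parts of the pump that sends cholesterol into bile, were 1.64-fold and 1.89-fold higher. Abcg8 ran from 2283 to 3264 (median 2862) with sugar and from 1093 to 1706 (median 1476) with fat (0.92 ± 0.11, adjusted p = 4.21e-07), without overlap. Cyp27a1, which opens the acidic route to bile acids, ran from 8607 to 11528 and from 5132 to 6940 (1.66-fold, adjusted p = 8.24e-06). Baat, which joins bile acids to amino acids, lay between 61.5 and 83.1 and between 8.01 and 34.5 (2.16-fold). The classic route was different: Cyp7a1, its rate-limiting enzyme, had a median of 2679 with sugar and 3797 with fat (−0.58 ± 0.38, adjusted p = 0.257, not passing), and Cyp8b1, which sets the share of cholic acid, was 1.27-fold lower. Both were chosen after their values were seen, and Cyp8b1 did not pass without high-fat replicate 2 or high-sugar replicate 1.

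Of 13 measured clock genes of 19 listed, 7 were higher, 0 lower and 6 did not pass (median 0.46), with 6 above without overlap. Over all genes, 17.6% went in each direction and 10.5% lay above without overlap. The 7 higher genes were Ciart, Bhlhe40, Per1, Per2 and Per3, which repress the clock's activators, and Dbp and Usp2, outputs of the clock. Their activators bind E-boxes, and Dbp and its relatives bind D-boxes, so promoters of 3 of these genes are shown with such letters marked. They are the 250 bases before the start of transcription from RefSeq (build GRCm38.p6), 5′ to 3′ on the gene's strand, with E-boxes (CACGTG) in capitals for Ciart (chr3:95882229-95882478, minus strand) and Per1 (chr11:69098699-69098948, plus strand), and D-boxes (TTANGTAA, N being any base) in capitals for Per3 (chr4:151044666-151044915, minus strand).
Ciart: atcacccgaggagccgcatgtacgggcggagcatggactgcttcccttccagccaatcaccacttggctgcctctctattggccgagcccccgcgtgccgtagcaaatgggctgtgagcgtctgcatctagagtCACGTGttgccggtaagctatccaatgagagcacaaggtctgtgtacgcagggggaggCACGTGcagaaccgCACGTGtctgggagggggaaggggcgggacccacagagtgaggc
Per1: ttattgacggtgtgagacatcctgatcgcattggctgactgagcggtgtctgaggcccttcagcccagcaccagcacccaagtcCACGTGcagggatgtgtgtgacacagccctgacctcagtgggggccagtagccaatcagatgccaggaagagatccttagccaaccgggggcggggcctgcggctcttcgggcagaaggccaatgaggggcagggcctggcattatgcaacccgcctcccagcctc
Per3: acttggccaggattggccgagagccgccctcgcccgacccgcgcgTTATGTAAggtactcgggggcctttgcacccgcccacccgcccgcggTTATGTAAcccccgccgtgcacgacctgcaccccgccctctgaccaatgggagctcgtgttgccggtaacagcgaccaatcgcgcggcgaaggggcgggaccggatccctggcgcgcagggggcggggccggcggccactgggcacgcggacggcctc
The window of Ciart holds 3 E-boxes, which start 116, 58 and 44 bases before the start of transcription. The window of Per1 shown here holds 1, while a second window of Per1 holds 0. That of Per3 holds 2 D-boxes and no E-box. The windows shown are those of higher genes that held a match. RefSeq windows were found for 11 of the 13 measured genes, 15 windows in all because some genes have several starts, and CACGTG stood in 4 of them (26.7%), among them both windows of Tef, a gene that did not pass (0.29 ± 0.17), against 8.06% of 11463 windows of genes tested and 6.02% of all 32851 windows. TTANGTAA, searched on both strands like the E-box, stood in 1 of the 15 (6.67%), against 1.49% and 2.06%. The windows of Usp2 and Dbp held neither, and Per2 and Bhlhe40 are named only. In 18 windows of 15 measured cholesterol genes, CACGTG stood in 4 (22.2%) and the sterol response letters TCACNCCAC in 0, against 0.977% of windows of genes tested. A match is a description of these letters, and no match says only that they are not in this window.

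Ciart, with 3 E-boxes in its window, ran from 837 to 1322 (median 1007) with sugar and from 65.1 to 548 (median 125) with fat (5.91-fold, 2.56 ± 0.32, adjusted p = 6.55e-07). Usp2 ran from 1442 to 1810 (median 1557) and from 265 to 787 (median 365), 3.68-fold higher (adjusted p = 1.94e-08). Bhlhe40 ran from 105 to 145 (median 126) with sugar, and with fat it exceeded the noise limit in 4 of 6 samples, at up to 20.3 (3.72-fold). These 3 genes were separate between groups, and the control medians of 1069 for Ciart and 1763 for Usp2 were close to sugar, not fat. Per2 ran from 393 to 476 (median 443) with sugar and from 121 to 228 (median 178) with fat (2.22-fold, adjusted p = 2.02e-06). Dbp (1.79-fold, without overlap), Per1 (1.43-fold, without overlap) and Per3 (1.38-fold, with overlap) were named after their values were seen.

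Other clock genes did not pass: Nr1d1, a repressor in the second loop of the clock, gave −0.01 ± 0.18 with medians of 148 and 152, and Clock, the activator's gene, −0.24 ± 0.12. High-fat samples were unequal among themselves. High-fat replicate 6 was the highest of its group in 5 of the 7 higher genes, with Ciart at 548 and Usp2 at 787, and replicate 5 was the lowest in 5 of the 7. The same replicate 6 was the highest high-fat sample for Rgs16 (2791) and Lpin1 (1665). Whether tissue was taken at the same hour in both groups is not given in the sources used here, so its part in the clock result was not tested.

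Drug-metabolising P450 genes had the highest median of the 22 lists, 0.78, with 11 of 19 measured genes higher, 2 lower and 10 above without overlap. The shares over all genes were 17.6% in each direction and 10.5% above without overlap. Cyp2a5, a P450 that oxidises nicotine and coumarin, ran from 11210 to 13884 (median 12184) with sugar and from 1877 to 2995 (median 2411) with fat (5.10-fold, 2.35 ± 0.16, adjusted p = 2.98e-11), and all 4 of its other probes passed in the same direction. Cyp2c50 ran from 1957 to 3210 (median 2419) and from 379 to 615 (median 495), 4.84-fold higher (adjusted p = 3.91e-11). Cyp2c37 was 3.25-fold higher. None overlapped, but the Cyp2a, Cyp2b and Cyp2c families hold near-identical genes, so the share of each member is uncertain. The Cyp2c29 probe was dim, at 41.7 to 60.4 with sugar and above the noise limit in 2 of 6 high-fat samples (adjusted p = 3.7e-12).

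Cyp2b10, the model target of CAR, lay between 34 and 141 (median 91) with sugar and in 0 of 6 high-fat samples above the noise limit, at least 3.06-fold higher against the lowest signal above that limit (adjusted p = 6.09e-07), while its other, dim probe gave 0.11 and did not pass. The receptor genes were on the same side: Nr1i3, the gene of CAR, had 3831 to 4848 against 1430 to 2629 (2.04-fold), and Nr1i2, the gene of PXR, 168 to 219 against 72.3 to 127 (1.88-fold). Cyp3a11, the model target of PXR, was 1.82-fold lower, with overlap (−0.86 ± 0.22, adjusted p = 0.00254). Cyp1a2, which oxidises caffeine, was 2.73-fold higher, without overlap. These last 4 were picked after their values were seen.

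Among conjugation genes 11 of 24 measured were higher and 3 lower (median 0.32), against 17.6% of all genes in each direction. Gstt3, a glutathione transferase, ran from 322 to 508 (median 424) with sugar and from 63.3 to 137 (median 103) with fat (3.31-fold, 1.73 ± 0.20, adjusted p = 2.02e-07). The glucuronosyltransferases Ugt2a3 (2.21-fold) and Ugt2b36 (1.71-fold) were higher, while Ugt1a5 ran from 23.9 to 131 (median 50.5) with sugar and from 197 to 818 (median 550) with fat, 6.09-fold lower (−2.61 ± 0.32, adjusted p = 5.58e-07). Ugt1a2 was 5.53-fold lower. No group overlapped for these 5 genes, and the Ugt1a genes share exons, so their probes may not tell members apart. The count of 3 lower genes was 5 without high-sugar replicate 2.

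Of 13 antioxidant and NRF2 genes, 5 were higher and 1 lower (median 0.19), against 17.6% of all genes in each direction. Gclm, the regulatory subunit of glutathione synthesis, ran from 668 to 805 (median 694) with sugar and from 240 to 345 (median 289) with fat (2.29-fold, 1.20 ± 0.09, adjusted p = 4.39e-10). Catalase (Cat, 1.79-fold) and mitochondrial superoxide dismutase (Sod2, 1.58-fold) were higher and also separate between groups. Nqo1, a common readout of NRF2, gave 0.03 ± 0.11. Keap1, the inhibitor of NRF2, was 1.29-fold lower on its brightest probe, with 1 of its other 4 probes opposite, and 2 genes were lower without high-fat replicate 4.

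Chaperones and folding enzymes of the endoplasmic reticulum were higher in 11 of 17 and lower in 0 (median 0.40). The share over all genes was 17.6% in each direction. Hsp90b1, a chaperone of secreted proteins, ran from 581 to 732 (median 645) with sugar and from 209 to 450 (median 254) with fat (2.17-fold, 1.12 ± 0.18, adjusted p = 2.42e-05). Herpud1, of the degradation route for misfolded proteins, ran from 11956 to 16384 and from 5800 to 9425 (1.94-fold, adjusted p = 4.39e-06). Both were separate between groups, and Calr, calreticulin, was 1.82-fold higher with overlap. Dnajb9, a co-chaperone, lay between 64 and 110 with sugar and exceeded the noise limit in 4 of 6 high-fat samples (2.77-fold, adjusted p = 3.14e-09). Xbp1, the transcription factor of this response, gave 0.23 ± 0.11 and did not pass.

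In the integrated stress response, 2 of 14 genes were higher and 6 lower (median −0.15). Against 17.6% of all genes in each direction, the higher share was near the background. Chac1, which breaks down glutathione, lay between 200 and 295 with sugar and between 53.2 and 180 with fat (2.36-fold, adjusted p = 0.000363), and Atf4, the gene of the central factor, was 1.39-fold higher with overlap. Atf5 ran from 1096 to 1426 with sugar and from 1667 to 2105 with fat (1.52-fold lower, adjusted p = 7.38e-05). Asns, asparagine synthetase, was above the noise limit in 0 high-sugar and 4 high-fat samples, at least 1.14-fold lower. Asns did not pass with intensities under 16 set to 16.

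Cytosolic heat shock genes were near the background, with 2 of 14 higher and 3 lower (median −0.13). The 2 higher were Hspe1 (0.54 ± 0.11, adjusted p = 0.000563), without overlap, and Fkbp4 (0.37 ± 0.10, adjusted p = 0.00627), with overlap. Hspa1b, an inducible chaperone with a near-identical copy, Hspa1a, ran from −0.156 to 19.7 with sugar and from 23.9 to 100 with fat (1.81-fold lower, adjusted p = 0.000739). Hspa1a was 1.66-fold lower with overlap and did not pass without high-fat replicate 4 (adjusted p = 0.0537). Of 9 immediate early genes, which answer signals within minutes and also respond to handling of tissue, 3 were higher and 3 lower. The share over all genes was 17.6% in each direction. Dusp1, a phosphatase, ran from 673 to 1545 with sugar and from 450 to 581 with fat (1.95-fold, adjusted p = 0.000153), Jun was 1.57-fold higher, and Ier3 was 1.47-fold lower. Egr1 was 2.40-fold higher with overlap, since high-fat replicate 5 lay at 303 and the other high-fat samples between 58.3 and 96.2.

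Gluconeogenesis and glycogen genes differed in both directions more often than genes at large: 7 of 13 were higher and 5 lower (median 0.40). Pck1, the gluconeogenic enzyme that makes phosphoenolpyruvate, ran from 117 to 168 (median 157) with sugar and from 33.5 to 52.7 (median 38.1) with fat (2.52-fold, 1.33 ± 0.10, adjusted p = 3.84e-10). Ppargc1a, a coactivator of gluconeogenic genes, ran from 33.1 to 40.5 (median 36.9) and from 62.6 to 152 (median 112), 2.03-fold lower (adjusted p = 4.5e-06). So the coactivator and one of its known targets lay on opposite sides, each without overlap. Other members of the list also went both ways without overlap. Fbp1 (−0.50 ± 0.08, adjusted p = 2.01e-05) and Pcx (−0.56 ± 0.11, adjusted p = 0.00014), both enzymes of gluconeogenesis, were lower. Slc37a4 was higher (0.59 ± 0.11, adjusted p = 8.2e-05). Fbp1, Pcx and Slc37a4 were picked after their values were seen. Irs2, which passes on the insulin signal, ran from 179 to 285 with sugar and from 375 to 822 with fat (2.00-fold lower, adjusted p = 1.28e-05).

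Most glycogen genes that passed were higher, and Ppp1r3g was lower. Pygl, which breaks down glycogen, was 1.77-fold higher without overlap, though its other probe did not pass. Of the subunits that bring protein phosphatase 1 to glycogen, Ppp1r3b had 851 to 1130 against 264 to 594 (2.46-fold) and Ppp1r3c was 1.84-fold higher with overlap, both picked after their values were seen. Ugp2, which makes the glucose donor of glycogen, was higher (0.40 ± 0.09) and Gys2, the liver glycogen synthase, gave −0.21 ± 0.15 and did not pass, likewise picked. Ppp1r3g, another such subunit, ran from 43 to 168 (median 89.2) with sugar and from 48.4 to 1222 (median 1038) with fat (4.29-fold lower, −2.10 ± 0.52, adjusted p = 0.00243, and −1.48 with the mean of its probes). Its groups overlapped because high-fat replicates 3 and 5 lay at 143 and 48.4, while the other 4 were between 999 and 1222.

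Amino acid breakdown and urea cycle genes had 5 of 17 higher and 6 lower (median −0.23), against 17.6% of all genes in each direction. Prodh, which oxidises proline, ran from 1085 to 1593 (median 1341) with sugar and from 436 to 667 (median 512) with fat (2.46-fold, 1.30 ± 0.16, adjusted p = 5.2e-07). Cbs, which draws homocysteine towards cysteine, ran from 1034 to 1323 and from 1769 to 2410 (1.77-fold lower, adjusted p = 2.1e-07). These were separate between groups. Of the urea cycle, Cps1, Nags, Asl and Arg1 were lower, by 0.38, 0.42, 0.65 and 0.53 on the log2 scale, while Ass1 gave −0.24 ± 0.11 and did not pass, and Cps1 did not pass without high-fat replicate 5 (adjusted p = 0.0577). Nags, Asl, Arg1 and Ass1 are outside the rule for named genes. The 5 higher genes were 3 without high-fat replicate 1.

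Interferon-response genes split, with 5 of 21 higher and 4 lower (median 0.02), shares near the background. Gbp2, a GTPase induced by interferon gamma, ran from 309 to 672 (median 533) with sugar and from 159 to 374 (median 243) with fat (1.85-fold, adjusted p = 0.000537). Isg15 and Usp18, targets of type I interferon, were 1.58-fold and 1.56-fold lower. Only Usp18 was separate between groups among these 3. Other targets of type I interferon, picked after their values were seen, went both ways. Ifit3 was higher (0.53 ± 0.16), Ifit2 (−0.49 ± 0.14) and Oasl1 (−0.49 ± 0.18) were lower, all with overlap, and Rsad2 and Irf7 did not pass. Of 21 acute phase genes 3 were higher and 4 lower (median −0.09), also near the background of 17.6% in each direction. Saa4, which is made constitutively, ran from 1092 to 1520 (median 1232) with sugar and from 229 to 689 (median 301) with fat (3.61-fold, adjusted p = 1.07e-08), and Hamp, the iron hormone hepcidin, was 2.24-fold higher with overlap. Orm1, an acute phase glycoprotein, was 1.74-fold lower without overlap. Counts of lower acute phase genes ran from 2 to 6 when single samples were left out, and moved by over 1.5 times without high-fat replicate 3 or high-sugar replicates 4, 5 or 6.

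In the sex-biased and growth hormone dependent list 5 of 15 were higher and 4 lower (median 0.09). The share over all genes was 17.6% in each direction. Ghr, the growth hormone receptor, ran from 1950 to 2500 (median 2340) with sugar and from 738 to 1198 (median 979) with fat (2.32-fold, adjusted p = 2.68e-08), although 1 of its 2 other probes did not pass. Igf1, its main target in liver, gave −0.01 ± 0.06, a value chosen after it was seen. Genes biased to males went both ways. Mup20 (2.35-fold) and Cyp2d9 (1.40-fold) were higher without overlap, and Hsd3b5 (1.75 ± 0.63, adjusted p = 0.0322) was higher with overlap. Cyp4a12b (−1.33 ± 0.42), Cyp4a12a (−0.78 ± 0.30) and Elovl3 (−0.59 ± 0.19) were lower with overlap. Hsd3b5 and these 3 lower genes were picked after their values were seen, and the Cyp4a12 genes are near-identical. Without high-fat replicates 1 or 4, 2 genes of the list in place of 4 were lower. Cell cycle genes were lower in 6 of 13 and higher in 1 (median −0.19), against 17.6% of all genes in each direction. The members with the smallest adjusted p, Cdc20, Birc5, Aurka and Cdk1, were at low intensity. Cdc20, which starts anaphase, lay between 20.3 and 207 (median 107) with fat and exceeded the noise limit in 2 of 6 high-sugar samples (adjusted p = 8.2e-06). Its difference was −1.67 with the offset and −2.40 with a floor of 16 in its place, and Birc5, survivin, was 2.00-fold lower. The 1 higher gene, Tyms, did not pass without high-fat replicate 3 or high-sugar replicate 2.

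Some markers of cells other than hepatocytes differed too. Over all genes, 17.6% were higher and 17.6% lower, and 10.5% lay above and 7.30% below without overlap. The counts for recruited macrophages, stellate cells and cholangiocytes were near or below these shares. In bulk tissue, fewer cells of a type and less RNA per cell cannot be told apart. Resident macrophage markers were lower in 5 of 10 and higher in 1 (median −0.27), and their summed intensity ran from 3518 to 5752 with sugar, from 4788 to 7485 with fat and from 4153 to 4541 in control samples. C1qa, a complement subunit that macrophages make, ran from 207 to 300 (median 246) with sugar and from 402 to 624 (median 468) with fat (1.80-fold lower, adjusted p = 7.75e-07), and C1qb and C1qc were 1.54-fold and 1.48-fold lower with overlap. Csf1r was 1.42-fold lower on its brightest probe, but its other probe passed in the opposite direction. Clec4f was 1.30-fold lower with overlap (medians of 1101 with sugar and 1563 with fat, adjusted p = 0.00969), and Vsig4, Marco and Timd4 did not pass. Adgre1 (F4/80) gave 0.02 ± 0.07 but exceeded the noise limit in only 4 samples of each group, so its level could not be read. Cd5l was below the filter. Clec4f and Adgre1 were picked after their values were seen. The 1 higher marker, Mpeg1, did not pass without high-sugar replicates 1 or 3.

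Endothelial markers were lower in 5 of 11 (median −0.16), all 5 without overlap, among them Gpr182 (1.47-fold), Stab2 (1.40-fold), Stab1 (1.42-fold) and Eng (1.22-fold), while Lyve1 (0.15 ± 0.08), Kdr and Cdh5 did not pass. Their sum ran from 6300 to 7787 with sugar and from 6703 to 7987 with fat. Other probes of Gpr182 and Stab1 did not pass. Of 6 measured markers of recruited macrophages, Cd9 was 3.13-fold lower and Lgals3 1.74-fold higher. Cd9 ran from 136 to 230 (median 176) with sugar and from 529 to 712 (median 611) with fat (−1.65 ± 0.16, adjusted p = 1.51e-08), without overlap, and it is also made by cells other than macrophages. Gpnmb and Trem2 did not pass, and Ccr2, Itgax and Mmp12 were below the filter. Summed intensity of this list ran from 2153 to 4347 with sugar and from 3165 to 4982 with fat.

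Stellate cell markers had 1 of 9 higher (Reln, 1.30-fold) and 1 lower (Lrat, which exceeded the noise limit in 2 high-sugar and 5 high-fat samples), with sums of 3844 to 4757 and 3311 to 4815. Collagen gene Col1a1 was at the noise limit in both groups, and Col1a2 and Col3a1 were below the filter. There were 2 lower stellate markers without high-fat replicate 6 or high-sugar replicates 1 or 3. The 2 measured cholangiocyte markers, Sox9 and Krt7, did not pass, with 1 higher without high-fat replicate 5, and sums of 322 to 500 and 258 to 509. Of 7 lymphocyte and neutrophil markers S100a8, S100a9 and Cd79b were lower, with sums of 92.0 to 243 and 135 to 488. Between 0 and 3 of them passed when single samples were left out, with the count moved by high-fat replicates 2, 3 and 5 and high-sugar replicates 2, 4, 5 and 6, and S100a9 exceeded the noise limit in 0 high-sugar and 2 high-fat samples.

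Of the pancreas list, Amy2a5 and Cela1 were higher and Ctrb1 and Cela2a did not pass, while Cel, Cpa1, Ins2 and Prss2 were below the filter. Amy2a5, an amylase gene of a near-identical family that liver amylase belongs to as well, ran from 4502 to 5372 (median 4779) with sugar and from 2164 to 2877 (median 2548) with fat (1.91-fold, 0.94 ± 0.09, adjusted p = 7.23e-09). The sum of the list ran from 5388 to 6290 with sugar and from 2697 to 3323 with fat. What part these cell types have in the differences of the pathway genes was not tested.

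The reference groups show on which side of the normal liver a difference lay. For the 553 genes higher in high-sugar by at least 1.5-fold, the control mean lay nearer to high-fat in 395 (71.4%), against 56.4% of all genes tested. For the 305 lower genes, it lay nearer to high-sugar in 172 (56.4%), against 43.6% of all genes. Control lay between the 2 group means in 80.7% of the higher and 80.7% of the lower genes, and in 41.5% of all genes. These shares describe genes chosen for a wide gap between the same 2 means, between which another value falls more easily, and they carry no test.

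The midpoint of the high-sugar and high-fat means was also tested against control in the same fit, a contrast added after the data were seen. Its estimate is uncorrelated with the difference between the 2 groups, but both contrasts use the same estimate of each gene's spread. Genes chosen for passing the first can therefore pass the second more often than genes at large. The shares that follow are descriptions only. The midpoint lay above control in 165 of the 553 higher genes (29.8%) and below in 52 (9.40%), against 10.0% above and 9.49% below over all genes. Among the 305 lower genes it lay above in 43 (14.1%) and below in 38 (12.5%). Examples of the first kind are Aatk and Cyp2c50, whose control medians of 159 and 674 lay far below sugar, and examples with control near sugar are Ciart, Usp2 and Thrsp.

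When both treatments were given, levels lay nearer to sugar more often than to fat. The mean of the high-fat high-sugar group was nearer to high-sugar in 430 of the 553 higher genes (77.8%) and in 233 of the 305 lower genes (76.4%), against 62.6% of all genes. It lay between the 2 means in 71.8% and 78.4%, against 43.0%. As with control, these genes were chosen for a wide gap between the same 2 means, and the shares carry no test. Genes near sugar included Acacb, with a median of 188 against 145 with sugar and 721 with fat, Ugt1a5 (51.9 against 50.5 and 550) and Cyp2a5 (9310 against 12184 and 2411). Genes near fat included Ly6d (481 against 50.1 and 657), Mup5 (192 against 962 and 188) and Pck1 (37.4 against 157 and 38.1). Ciart (288 against 1007 and 125) and Thrsp, at 363 to 761 in the combined group and 497 to 939 with fat, also lay nearer to fat. Over all genes, the combined group differed from the midpoint of the single treatments in 1688 (15.2%).

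**Figure D5:**
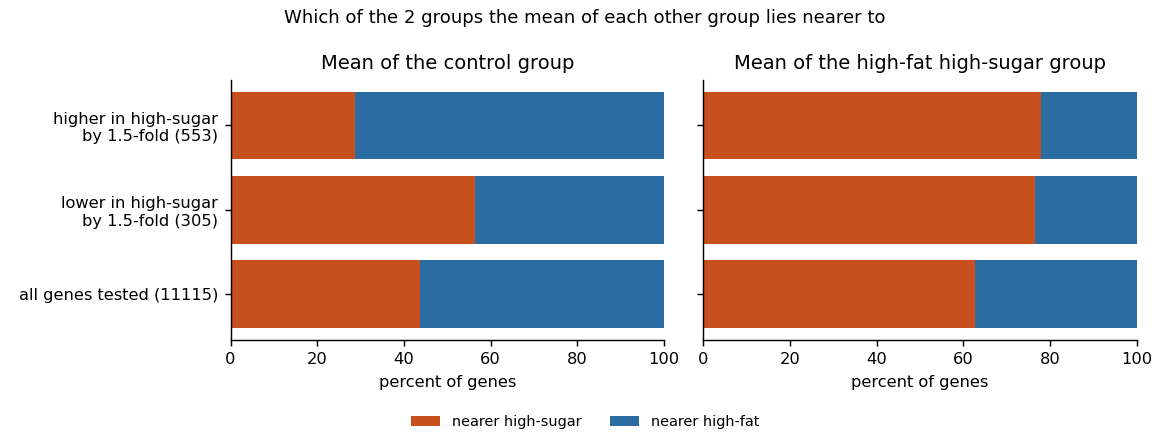
Percent of genes (x axis) in which the mean of the control group (left) or of the high-fat high-sugar group (right) was nearer to high-sugar (orange) or to high-fat (blue), for genes higher or lower in high-sugar by at least 1.5-fold and for all 11115 genes tested. The control group lies nearer to fat in 71.4% of the higher genes, and the group with both treatments nearer to sugar in 77.8%.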

How the data were processed

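Liver RNA was labelled as biotin cRNA with an Ambion kit and read on an Illumina bead array, per the labels' protocols. The deposited unit is the intensity of 45281 probes on a linear scale, and per the submitters' processing notes GenomeStudio 2011.1 was used. The values were background-subtracted (37.7% negative) and quantile-normalised (largest difference between sorted columns 0.231), both read from the values. A table of non-normalised signals holds 48 columns whose names match no sample label and was not used. A probe was kept if it exceeded 1.645 times the root mean square of its array's negative values on at least 6 of 24 arrays. This gave 20216 probes, 16910 of them with 1 gene symbol (34807 of 34885 such symbols on the array were updated by identifier), and the brightest probe per gene, 11115 genes, of which 4030 had several probes. An offset of 32 was added before log2.

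limma 3.58.1 in R 4.3.3 fitted 1 mean per group over all 24 samples, with empirical Bayes moderation and an intensity trend (20 residual and a median of 6.95 prior degrees of freedom). P-values are two-sided, adjusted by Benjamini-Hochberg over 11115 genes, with 0.05 as threshold. The procedure was tested on simulated data. The number of arrays limits the precision. Genes named by rule are the 15 largest higher and 15 largest lower with a standard symbol. To these were added the 4 members of each list with the smallest adjusted p, which gave 127 genes in all. Any other gene given was picked from its list after its values were seen, whether or not this is said beside it. The samples compared, the gene lists and the rule were chosen with earlier results of these data known. Alternatives were other offsets, a floor, other filters, cyclic loess, array weights, only 12 samples, the replicate number as a block, no trend, the mean of probes, and each sample left out.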

Additional observations from a re-analysis of the deposited data

Results flagged for a closer look

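In 13 of 254 groups of 6 values of named genes, the highest or lowest sample stood apart from the other 5 by more than Dixon's 95% critical value for the gap over the range. Chance alone flags about 1 in 20 such groups. Of the 13, 4 were in high-sugar replicate 1 and 3 in high-fat replicate 5, and these samples were not left out of the tests above.

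High-sugar replicate 1 was the lowest of its group for Dgat1 (93.2, the others 127 to 138), Pck1 (117, the others 153 to 168) and Pnpla2 (1814, the others 2544 to 3059), and the highest for Lgals3 (253, the others 125 to 156). High-fat replicate 5 was the lowest for Aatk (32.3, the others 53 to 65.7) and the highest for Cps1 (13327, the others 9072 to 10478) and Egr1 (303, the others 58.3 to 96.2). High-sugar replicate 6 was the lowest for Rgs16 (2489, the others 6233 to 10271) and Ifi47 (4.23, under the noise limit, the others 17.4 to 23.8). High-fat replicate 2 was the highest for Ifi47 (12.7, the others 3.23 to 6.06). High-sugar replicate 2 was the highest for Ces1b (2236, the others 1545 to 1762), high-sugar replicate 5 the lowest for Hspa1b (−0.156, the others 12.6 to 19.7) and high-fat replicate 6 the lowest for Csf1r (42.1, the others 62.4 to 72.6).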

How the results depend on the processing

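Under 23 alternative settings, 12 of which left out 1 sample, 117 of the 127 named genes kept their call wherever they gave a value and 0 reversed. Leaving out single samples gave 3524 to 3706 genes called, 1800 to 1893 higher and 1711 to 1813 lower, and past 1.5-fold 828 to 885, 534 to 572 higher and 284 to 326 lower. With intensities under 16 set to 16 and no offset, 1370 genes in place of 858 passed 1.5-fold, and 560 in place of 305 were lower; the cause was not tested. The other counts stayed within 1.5 times. The 10 genes that lost their call under at least 1 setting were Asns, Cd79b, Cps1, Csf1r, Hspa1a, Ifi47, Lrat, Pgk1, S100a8 and S100a9. The floor moved 15 named genes by over 1.5-fold, each to a larger size, offsets of 16 and 64 moved A1bg and Cyp2b10, and the mean of all probes made 8 smaller, among them Tubb2b (−0.37 against −1.73). No sample left out did so. With the replicate number as a block 3861 genes were called, 856 past 1.5-fold, and of the named genes S100a9 alone lost its call. The numbers do not pair the samples: deviations of same-numbered samples correlated at −0.0752 to 0.194, and 1 of 6 high-sugar samples correlated best with its own number. For 425 of the 3905 genes, a high-sugar or high-fat mean lay under the highest noise limit.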
